A study of Mus musculus with 15 samples.

Results

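The mitochondrial genome of the mouse heart was examined across all its annotated transcripts. The members are the 37 genes placed on chromosome MT out of 54532 genes in the deposited table: 13 mRNAs, 2 rRNAs and 22 tRNAs, the classes being those of the annotated gene biotype. Poly(A)-selected RNA of 15 hearts was sequenced, 3 hearts in each of 5 groups, which the labels call independent biological replicates. All pups were injected under the skin on day 1 after birth with an adeno-associated virus of serotype AAV9, and hearts were taken 12 to 14 days later. The virus carried its insert behind cTnT, the promoter of cardiac troponin T, which is active in cardiomyocytes. The Nat10-CKO mice formed 4 groups and received AAV9-cTnT-NAT10K209A (called CKO_K209A here), AAV9-cTnT-NAT10G641E (CKO_G641E), AAV9-cTnT-NAT10 (CKO_NAT10) or AAV9-cTnT-GFP (CKO_GFP). The remaining group, Nat10flox/flox mice given AAV9-cTnT-GFP, is called ff_GFP. The labels do not give the Cre driver of the knockout. The series sets the RNA binding of NAT10 against its acetyltransferase activity in heart development, and the labels do not say which substitution affects which activity.

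NAT10 is an RNA acetyltransferase that places N4-acetylcytidine on RNA. The mitochondrial genome encodes core subunits of respiratory complexes I, III, IV and V, together with the rRNAs and tRNAs of the mitochondrial ribosome and its translation, and every other mitochondrial protein is made from nuclear genes. It is transcribed as long polycistronic RNAs from both strands, and tRNAs excised at the junctions release most of the mRNAs and rRNAs. Heart muscle is dense in mitochondria, and mitochondrial transcripts are among the most abundant RNAs it holds.

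The tRNAs on which the results turn are shown from the GENCODE M21 annotation of build GRCm38, written 5′ to 3′ on the coding strand with the anticodon in capitals. The tRNA for glutamic acid, mt-Te, lies at chrMT:14071-14139 on the minus strand, directly beside mt-Nd6. The tRNA for tryptophan, mt-Tw, lies at chrMT:4950-5016 on the plus strand and overlaps the last 2 bases of mt-Nd2. The leucine tRNA mt-Tl1 lies at chrMT:2676-2750 on the plus strand, directly between mt-Rnr2 and mt-Nd1. The proline tRNA mt-Tp lies at chrMT:15356-15422 on the minus strand and is the last gene of the map.
mt-Te: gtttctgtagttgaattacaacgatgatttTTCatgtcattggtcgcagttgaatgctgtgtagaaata
mt-Tw: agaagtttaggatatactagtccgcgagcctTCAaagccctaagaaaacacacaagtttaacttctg
mt-Tl1: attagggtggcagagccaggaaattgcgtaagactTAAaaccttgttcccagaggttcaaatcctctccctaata
mt-Tp: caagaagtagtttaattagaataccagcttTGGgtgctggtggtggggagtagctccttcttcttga

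A near-identical copy of part of the mitochondrial genome lies in the nuclear genome, at chr1:24611535-24616197 of GRCm38, where 7 pseudogenes on the minus strand match mitochondrial mRNAs. Over 4140 aligned bases the copies differed from the mitochondrial genes at 2 positions, and identity per gene ran from 99.7% to complete. The first 80 bases of mt-Atp6 (chrMT:7927-8006) and of its copy Gm10925 (chr1:24614572-24614651) are shown as an identical pair. The first 80 bases of mt-Nd3 (chrMT:9459-9538) and of its copy Gm28438 (chr1:24613040-24613119) hold 1 of the 2 differing positions, given in capitals.
mt-Atp6: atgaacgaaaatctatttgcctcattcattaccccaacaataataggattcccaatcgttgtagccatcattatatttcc
Gm10925: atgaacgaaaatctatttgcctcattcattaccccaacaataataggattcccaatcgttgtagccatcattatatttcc
mt-Nd3: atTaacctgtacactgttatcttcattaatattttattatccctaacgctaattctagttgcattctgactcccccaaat
Gm28438: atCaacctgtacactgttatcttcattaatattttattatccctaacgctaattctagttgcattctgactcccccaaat

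The libraries held 13218352 to 15912700 reads in genes, recovered from the deposited values, and 12.2% to 19.2% of them lay in mitochondrial genes. Nat10, the targeted gene, averaged 3.54 ± 0.291 FPKM in CKO_K209A, 2.36 ± 0.199 FPKM in CKO_G641E, 2.62 ± 0.497 FPKM in CKO_NAT10, 3.48 ± 0.0498 FPKM in CKO_GFP and 4.09 ± 0.207 FPKM in ff_GFP (SD, n = 3 each). Nat10 in CKO_GFP against ff_GFP had a log2 difference of -0.21 (limma adjusted p = 0.165). Against CKO_GFP, Nat10 was called lower in CKO_G641E (-0.48, limma adjusted p = 0.00599) and CKO_NAT10 (-0.36, limma adjusted p = 0.0262), although those viruses carry NAT10 forms, and in CKO_K209A it differed by 0.02 (adjusted p = 0.935). Against ff_GFP it was called lower in CKO_G641E (-0.69) and CKO_NAT10 (-0.57). The Nat10 level therefore does not check the labels, so each group here is the set of libraries labelled with that name, and the directions drawn from them rest on the labels. The summed FPKM of 15 cardiomyocyte markers ranged over 9636 to 12207 in CKO_K209A, 23631 to 26876 in CKO_G641E, 21823 to 26126 in CKO_NAT10, 12146 to 16953 in CKO_GFP and 28276 to 30112 in ff_GFP. The sum of 10 fibroblast markers ranged over 1393 to 1584 in CKO_K209A, 858 to 936 in CKO_G641E, 968 to 1041 in CKO_NAT10, 1268 to 1627 in CKO_GFP and 769 to 893 in ff_GFP. In CKO_GFP against ff_GFP 12 of 15 cardiomyocyte markers fell and 1 rose, 7 of 10 fibroblast markers rose, 5 of 9 endothelial markers fell and 1 rose, 5 of 11 macrophage markers rose, 3 of 3 tested epicardial or endocardial markers rose, and of 8 smooth muscle and pericyte markers 3 rose and 3 fell. The 1 tested adipose marker fell. Over all tested genes 40.5% were called, 19.8% higher and 20.8% lower. In CKO_NAT10 against CKO_GFP 10 of 15 cardiomyocyte markers rose and 1 fell, 6 of 9 endothelial markers rose and 1 fell, and 6 of 10 fibroblast markers fell and 1 rose. Also, 3 of 11 macrophage and 2 of 3 tested epicardial or endocardial markers fell. Of 8 smooth muscle and pericyte markers 2 rose and 2 fell, and 31.2% of all tested genes were called, 15.1% higher and 16.1% lower. In CKO_G641E against CKO_GFP 10 of 15 cardiomyocyte markers rose and 1 fell, 5 of 9 endothelial markers rose and 1 fell, and 7 of 10 fibroblast markers fell. Further, 1 of 11 macrophage and 2 of 3 tested epicardial or endocardial markers fell, and the 1 tested adipose marker rose. Of 8 smooth muscle and pericyte markers 1 rose and 2 fell, and 31.3% of all tested genes were called, 15.4% higher and 15.9% lower. In CKO_K209A against CKO_GFP 5 of 15 cardiomyocyte, 1 of 10 fibroblast and 1 of 9 endothelial markers fell and none of these rose, and the summed levels of cardiomyocyte and of fibroblast markers overlapped. There, 2 of 11 macrophage markers and the 1 tested adipose marker fell, and 1 of 8 smooth muscle and pericyte markers rose. Over all tested genes 7.93% were called in that comparison, 2.17% higher and 5.76% lower. Against ff_GFP, 12 of 15 cardiomyocyte markers fell in CKO_K209A and 1 rose, while 6 of 10 fibroblast markers rose and 1 fell. Against CKO_NAT10, 11 cardiomyocyte markers fell and 1 rose, and 5 fibroblast markers rose and 2 fell. Against CKO_G641E these counts were 11 and 1, and 6 and 2. In each case 6 of 9 endothelial markers fell and 1 rose. Of all tested genes 47.7%, 41.5% and 40.8% were called, in the same order. The part of these markers in the mitochondrial results was not tested. The 4 lung markers summed to 0.0340 to 0.427 FPKM per library and the 4 liver markers to 0.469 to 3.26 FPKM. In whole hearts, fewer cells of a type and less RNA per cell cannot be told apart.

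The shares of reads taken by the 3 classes were summed per heart. The 13 mRNAs took 13.6% ± 1.75 of the reads in genes in CKO_K209A, 17.3% ± 0.796 in CKO_G641E, 17.3% ± 1.68 in CKO_NAT10, 15.9% ± 2.30 in CKO_GFP and 18% ± 0.738 in ff_GFP (SD, n = 3 each). The mRNA share of the 3 CKO_GFP hearts (13.7%, 18.3% and 15.9%) overlapped that of the ff_GFP hearts (18.3%, 18.5% and 17.1%), with replicate 2 of CKO_GFP at the ff_GFP level. The 2 rRNAs took 0.163%, 0.118% and 0.127% of reads in CKO_K209A, 0.323%, 0.453% and 0.405% in CKO_G641E, 0.275%, 0.464% and 0.406% in CKO_NAT10, 0.241%, 0.215% and 0.182% in CKO_GFP and 0.400%, 0.401% and 0.336% in ff_GFP. No rRNA share of a CKO_GFP heart reached the lowest of ff_GFP, CKO_NAT10 or CKO_G641E, and the CKO_K209A hearts lay below those of CKO_GFP. Each of these separations gave an exact two-sided permutation p of 0.10, the smallest that 3 hearts against 3 allow (adjusted p = 0.14 over 10 comparisons). The 22 tRNAs together took 0.0223% ± 0.00256 in CKO_K209A, 0.0420% ± 0.00626 in CKO_G641E, 0.0396% ± 0.00520 in CKO_NAT10, 0.0321% ± 0.00171 in CKO_GFP and 0.0426% ± 0.00312 in ff_GFP (SD, n = 3 each). Their order across the groups matched that of the rRNAs in that CKO_K209A lay lowest, CKO_GFP next and the remaining 3 groups above both without overlap. Poly(A) selection was applied, so the rRNA and tRNA values are what the selection kept, and the level of these RNAs and their capture cannot be told apart.

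**Figure D1:**
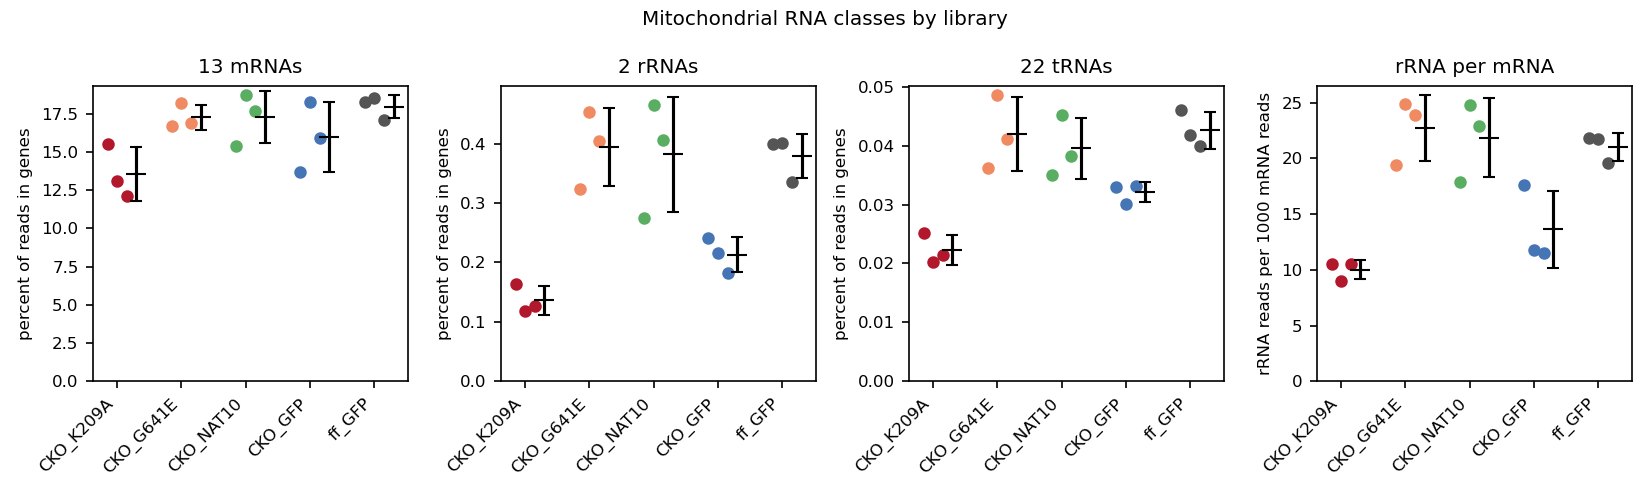
Percent of reads in genes taken by the 13 mRNAs, the 2 rRNAs and the 22 tRNAs, and rRNA reads per 1000 mRNA reads, in each heart (points), with the mean and SD of 3 hearts (bars). The rRNA panel shows CKO_GFP at 0.182% to 0.241% between CKO_K209A and the 3 other groups, while the mRNA panel shows CKO_GFP overlapping ff_GFP.

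The rRNAs also differed relative to the mRNAs within the same library, a measure that no scaling between libraries can alter. There were 10.5, 9.03 and 10.5 rRNA reads per 1000 mRNA reads in CKO_K209A, 19.4, 24.9 and 23.9 in CKO_G641E, 17.9, 24.8 and 22.9 in CKO_NAT10, 17.6, 11.8 and 11.5 in CKO_GFP and 21.8, 21.7 and 19.6 in ff_GFP. The ratio was lower by 7.44 in CKO_GFP than in ff_GFP, higher by 8.25 in CKO_NAT10 than in CKO_GFP and lower by 11 in CKO_K209A than in ff_GFP. None of these 3 pairs overlapped (exact two-sided permutation p = 0.10 each, adjusted p = 0.14), although replicate 1 of CKO_GFP at 17.6 stood just below the lowest CKO_NAT10 heart at 17.9. With the 5 mRNAs that have no chromosome 1 copy as the denominator, that replicate had 35.6 rRNA reads per 1000, above the lowest CKO_NAT10 heart at 34.4, and this pair then overlapped. The tRNAs relative to the mRNAs did not separate in the same way. They had 1.63, 1.55 and 1.78 reads per 1000 mRNA reads in CKO_K209A, 2.17, 2.68 and 2.43 in CKO_G641E, 2.28, 2.42 and 2.16 in CKO_NAT10, 2.41, 1.65 and 2.09 in CKO_GFP and 2.52, 2.27 and 2.33 in ff_GFP. CKO_GFP overlapped every other group (exact two-sided permutation p = 0.20 in CKO_K209A, 0.20 in CKO_G641E and 0.40 in CKO_NAT10 against CKO_GFP, and 0.30 in CKO_GFP against ff_GFP). The CKO_K209A hearts lay below CKO_G641E, CKO_NAT10 and ff_GFP without overlap (exact p = 0.10 each, adjusted p = 0.33). The large rRNA (16S, mt-Rnr2) over the small rRNA (12S, mt-Rnr1) had an FPKM ratio of 1.64 ± 0.301 in CKO_K209A, 1.70 ± 0.143 in CKO_G641E, 2.02 ± 0.0690 in CKO_NAT10, 2.03 ± 0.753 in CKO_GFP and 1.87 ± 0.0978 in ff_GFP (SD, n = 3 each). The ratio was most variable in CKO_GFP, at 1.51, 2.90 and 1.70, and that range overlapped each other group. CKO_NAT10, at 1.98, 2.10 and 1.99, lay without overlap above CKO_K209A, CKO_G641E and ff_GFP (exact two-sided permutation p = 0.10 each, adjusted p = 0.33).

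Among the mRNAs, levels per length (FPKM, fragments scaled to gene length and library depth) spanned a wide range. In ff_GFP, mt-Co1, the catalytic subunit of cytochrome c oxidase, led with 46578 ± 2306 FPKM, and mt-Cytb, the mitochondrially encoded subunit of complex III, followed with 25701 ± 1095 FPKM (SD, n = 3). The complex I subunits mt-Nd1, mt-Nd5, mt-Nd6, mt-Nd2 and mt-Nd4 had means between 18423 and 12974 FPKM in ff_GFP, with library values that overlap between neighbours in this order. A wide gap separated these 7 mRNAs from the other 6. The complex IV subunits mt-Co2 and mt-Co3 averaged 3033 and 2452 FPKM in ff_GFP, the complex V subunit mt-Atp6 averaged 2363 FPKM, mt-Nd4l 2093 FPKM and mt-Nd3 314 FPKM. The second complex V subunit, mt-Atp8, had the lowest value, 48.6 ± 18.3 FPKM in ff_GFP (SD, n = 3), and 45 to 196 reads per library. Its gene of 204 bases overlaps mt-Atp6 by 43 bases and is shorter than the selected fragments of 370 to 420 bp. The level of mt-Atp8 and the counting of reads that also touch a neighbour therefore cannot be told apart. The same holds for mt-Nd4l (297 bases, overlapping mt-Nd4 by 7) and mt-Nd3 (348 bases), which are shorter than these fragments too. The 6 low mRNAs lie in the stretch that is copied on chromosome 1.

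**Figure D2:**
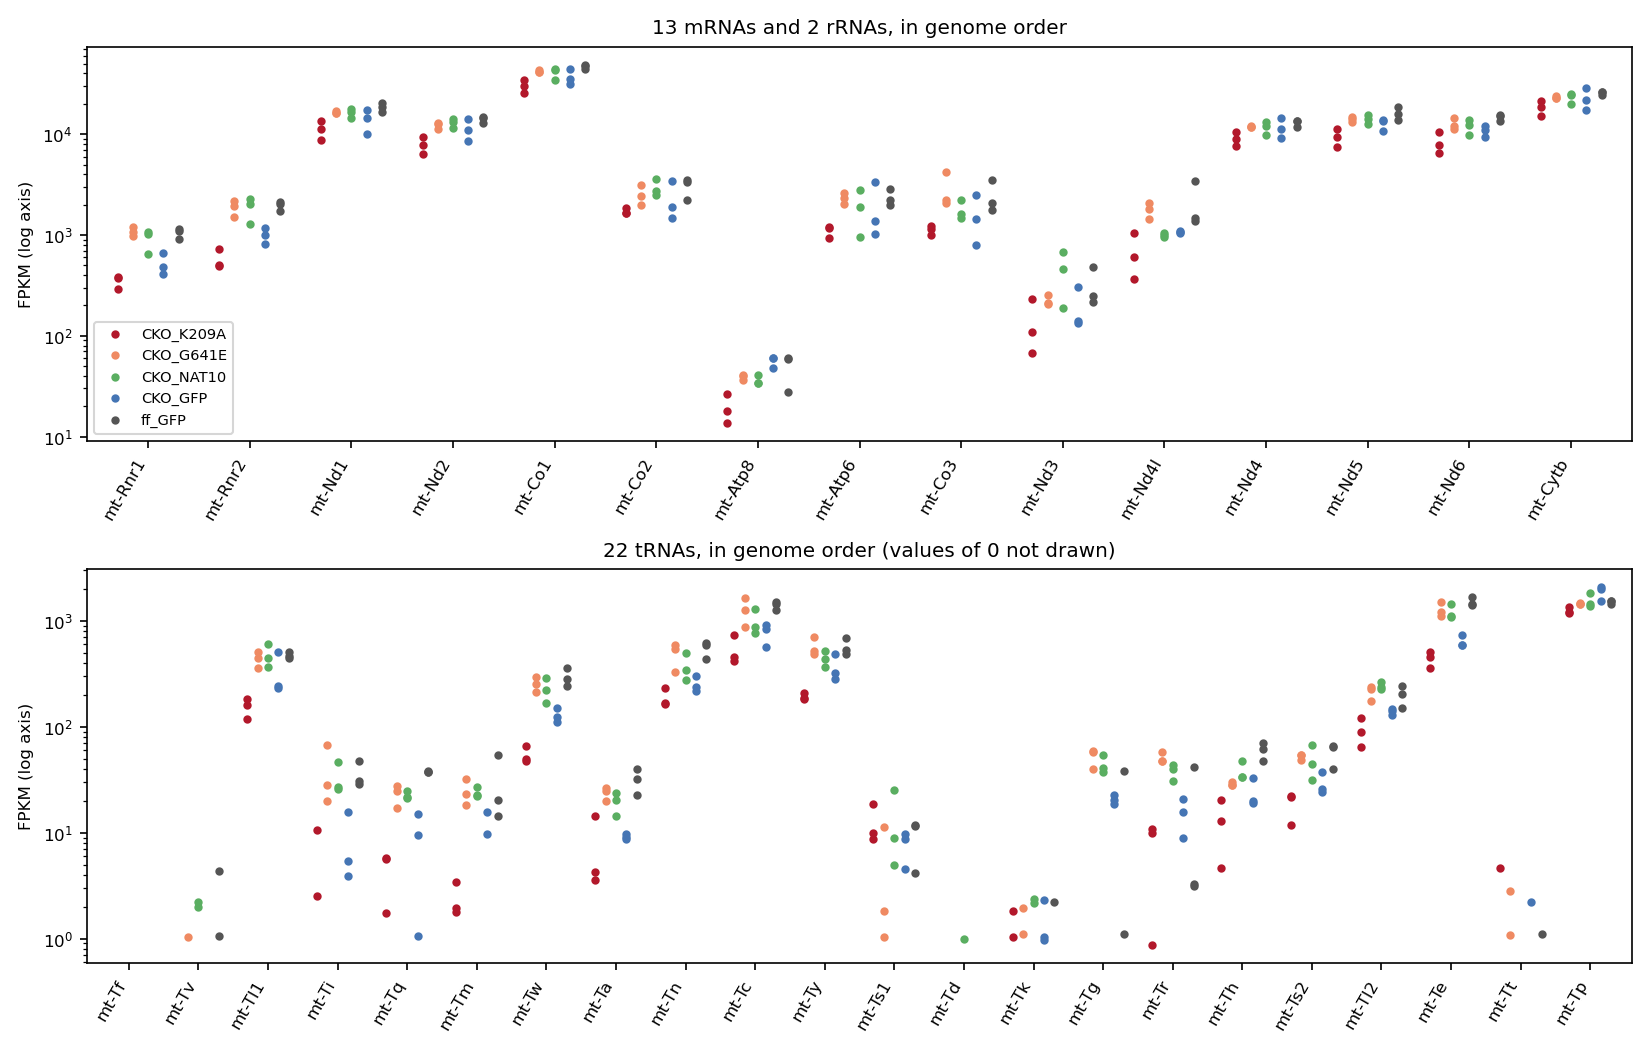
FPKM of each mitochondrial gene in each of 15 hearts on a log axis, with mRNAs and rRNAs above and tRNAs below, in genome order (points, 1 per heart, coloured by group). For mt-Rnr2 and mt-Te the CKO_K209A hearts lie below those of CKO_GFP and both groups below the others, for mt-Rnr1 the CKO_GFP and CKO_NAT10 hearts overlap, whereas mt-Tp lies at 1173 to 2069 FPKM in every heart.

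The low mRNAs were also the ones that varied most between replicates. The coefficient of variation within groups averaged 45% for mt-Nd3, 33.8% for mt-Co3, 31.9% for mt-Atp6, 26.5% for mt-Nd4l, 23.8% for mt-Co2 and 20.2% for mt-Atp8. It averaged 10.6% for mt-Co1, 11.9% for mt-Cytb, 12.4% for mt-Nd4 and 13% for mt-Nd5. Reads assigned to the chromosome 1 copies were a sizeable fraction of those assigned to the matching gene where the copy spans nearly the whole gene. The median ratio of copy reads to mitochondrial reads was 0.565 for mt-Nd3, 0.410 for mt-Atp6, 0.359 for mt-Co2, 0.276 for mt-Co3 and 0.269 for mt-Nd4l. It was 0.0258 for mt-Nd4, whose copy Gm28439 spans 63.6% of the gene, and 0.00745 for mt-Co1, whose copy Gm29216 spans 31.3%. None of the 7 copy genes has mt-Atp8 as its best match. That gene lies inside the copied stretch, and its last 43 bases, shared with mt-Atp6, are part of Gm10925. The genes mt-Nd1, mt-Nd2, mt-Nd5, mt-Nd6 and mt-Cytb lie outside the stretch. Identical reads can be assigned to either place or to neither, and their handling is not given in the sources used here. Values of the 8 mRNAs that lie wholly or partly in the stretch are therefore uncertain. The 5 mRNAs outside it have no such copy among the listed genes. The tRNA genes mt-Ts1, mt-Td, mt-Tk, mt-Tg and mt-Tr lie between the copied mRNAs on the mitochondrial map. Copies of tRNAs were not searched for, so the values of these tRNAs may carry the same uncertainty. How far a split or loss of reads bears on the low levels was not tested. Adding the copy reads to each gene, a choice made after seeing the data, left the number of mRNAs called in CKO_GFP against ff_GFP at 0 and the number in CKO_K209A against ff_GFP at 12. Such a sum cannot restore reads that were counted in neither place.

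**Figure D3:**
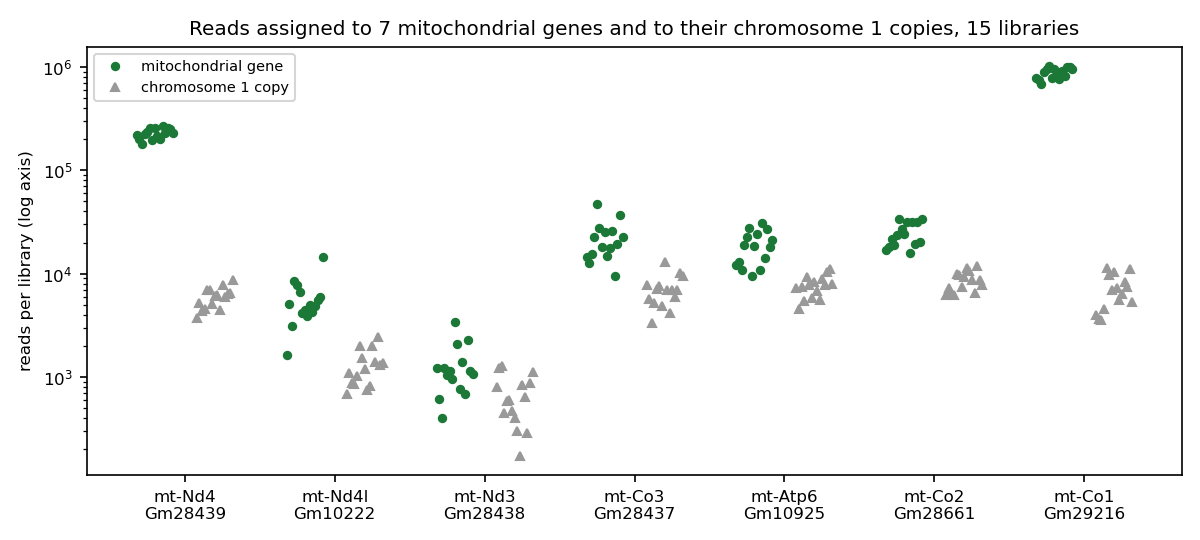
Reads per library on a log axis for 7 mitochondrial mRNAs (circles) and for the chromosome 1 pseudogene that matches each (triangles), with 15 hearts per gene. Copies of mt-Nd3, mt-Atp6 and mt-Co2 hold a median of 0.565, 0.410 and 0.359 times the reads of the mitochondrial gene.

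The tRNA genes were counted at very different depths. Of the 22, 8 had a median of at least 100 reads per library: mt-Tl1, mt-Tw, mt-Tn, mt-Tc, mt-Ty, mt-Tl2, mt-Te and mt-Tp. Of these 8, 5 are annotated on the minus strand (mt-Tn, mt-Tc, mt-Ty, mt-Te and mt-Tp), where 8 of the 22 tRNA genes lie. A further 5 tRNAs (mt-Tf, mt-Tv, mt-Td, mt-Tk and mt-Tt) had at most 5 reads in every library, and mt-Tf had 0 reads in all 15, which allows up to 3 reads per library. The filter of at least 0.5 FPKM in at least 3 libraries kept 35 of the 37 members and dropped mt-Tf and mt-Td. Each tRNA gene is 59 to 75 bases long and shorter than the selected fragments of 370 to 420 bp. A fragment of that size reaches beyond the tRNA gene, so these counts are not a measure of mature tRNAs. From which longer RNAs the reads come was not tested. Whether counting used the strand is not given in the sources used here, so reads of a gene and of RNA antisense to it cannot be told apart. Some neighbouring genes overlap, such as mt-Atp8 and mt-Atp6 over 43 bases and mt-Nd4l and mt-Nd4 over 7 bases. On opposite strands, mt-Nd5 and mt-Nd6 overlap over 14 bases. How reads that touch neighbouring genes were counted is not given either. The gene mt-Atp8 held 45 to 196 reads per library, beside 9417 to 30863 for mt-Atp6.

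In CKO_GFP hearts against ff_GFP hearts, the comparison of the Nat10 knockout with its floxed control, both rRNAs and many tRNAs fell while no mRNA passed the test. The small rRNA mt-Rnr1 (ENSMUSG00000064337, chrMT:70-1024) had 668, 407 and 484 FPKM in CKO_GFP, against 1102, 1152 and 903 FPKM in ff_GFP. It was lower in every CKO_GFP heart, by a log2 difference of -1.04 (SE 0.21, limma adjusted p = 0.00140). The large rRNA mt-Rnr2 (ENSMUSG00000064339, chrMT:1094-2675) had 1007, 1178 and 821 FPKM in CKO_GFP, against 2117, 2021 and 1739 FPKM in ff_GFP. Its log2 difference was -0.98 (SE 0.22, limma adjusted p = 0.00348), and again the groups did not overlap. Of the 15321 genes tested, 40.5% were called in this comparison, 19.8% as higher and 20.8% as lower in CKO_GFP, and 46.5% had groups that did not overlap.

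Of the 20 tRNAs tested, 10 fell in CKO_GFP, 10 were not called and the median log2 difference was -0.91, or -0.88 without mt-Tv, which had 0 reads in CKO_GFP and too few in ff_GFP for a fold. Glutamic acid tRNA mt-Te had 592, 596 and 728 FPKM in CKO_GFP, against 1689.8, 1406 and 1455 FPKM in ff_GFP. It had the smallest p of the tRNAs, with a log2 difference of -1.25 (SE 0.16, limma adjusted p = 3.72e-05). Tryptophan tRNA mt-Tw had 149, 125 and 109.8 FPKM in CKO_GFP, against 355, 241 and 282 FPKM in ff_GFP, a log2 difference of -1.18 (SE 0.21, limma adjusted p = 5.33e-04). Both tRNAs were separated without overlap. Among the 8 tRNAs with the most reads, mt-Tn (-1.12), mt-Tc (-0.88) and mt-Ty (-0.65) also fell on the log2 scale, while mt-Tl1 (-0.62, adjusted p = 0.0886) and mt-Tl2 (-0.49, adjusted p = 0.0797) were not called. Without replicate 2 of CKO_GFP, which had 507 FPKM of mt-Tl1 against 242 and 232 FPKM in the other CKO_GFP hearts, 6 tRNAs were called and mt-Tl1 was among those past the threshold, with a log2 difference of -0.99. The remaining called tRNAs (mt-Ta, mt-Tq, mt-Tm, mt-Th and mt-Ts2) had fewer reads, and their log2 differences lay between -2.62 and -0.94.

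Proline tRNA mt-Tp stood apart from the other well-counted tRNAs. It had 1540.4, 2069 and 1974 FPKM in CKO_GFP, against 1521, 1525 and 1429 FPKM in ff_GFP, and the lowest CKO_GFP heart lay just above the highest ff_GFP heart. Its log2 difference of 0.31 (SE 0.13, limma adjusted p = 0.0656) did not pass the threshold. It passed as higher in CKO_GFP without replicate 1 of CKO_GFP (0.44), without replicate 3 of CKO_NAT10 (0.31), with limma voom (0.31), with quantile normalization (0.71) and with libraries scaled to all reads in genes (0.45) or to reads outside the mitochondrial genome (0.42). Its within-group coefficient of variation averaged 8.65%, the lowest of the members.

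The 13 mRNAs had a median log2 difference of -0.43 in CKO_GFP against ff_GFP, beside 0.00 over all tested genes, and 12 of the 13 were negative. Limma called 0 of them at the adjusted threshold, 2 had an unadjusted p under 0.05, and limma voom on the recovered reads, added after seeing the data, called 2. The leading mRNA mt-Co1 had 31225, 44469 and 35319 FPKM in CKO_GFP, against 47001, 48644 and 44089.8 FPKM in ff_GFP. The complex III mRNA mt-Cytb had 17309, 28472 and 21734 FPKM in CKO_GFP, against 26238, 26424 and 24441 FPKM in ff_GFP. The second CKO_GFP heart lay within the ff_GFP range of mt-Co1 and above that of mt-Cytb, and the other 2 lay below both ranges. Without that heart 6 of the 13 mRNAs were called lower, against 2 without replicate 1 of CKO_K209A and 1 without replicate 2 of CKO_K209A, which enter through the shared estimate of spread. The groups did not overlap in mt-Nd6, a complex I subunit and the mRNA annotated on the minus strand, with 9275, 12045 and 11083 FPKM in CKO_GFP against 15345, 15167 and 13478 FPKM in ff_GFP (log2 difference -0.45, limma adjusted p = 0.0762). The other mRNA without overlap was mt-Nd4l, with 1053, 1068 and 1102 FPKM in CKO_GFP against 1365, 1476 and 3439.8 FPKM in ff_GFP (log2 difference -0.83, limma adjusted p = 0.0826). The counting limit given above for genes shorter than the fragments applies to mt-Nd4l. The 5 mRNAs without a chromosome 1 copy had log2 differences of -0.45 to -0.22.

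**Figure D4:**
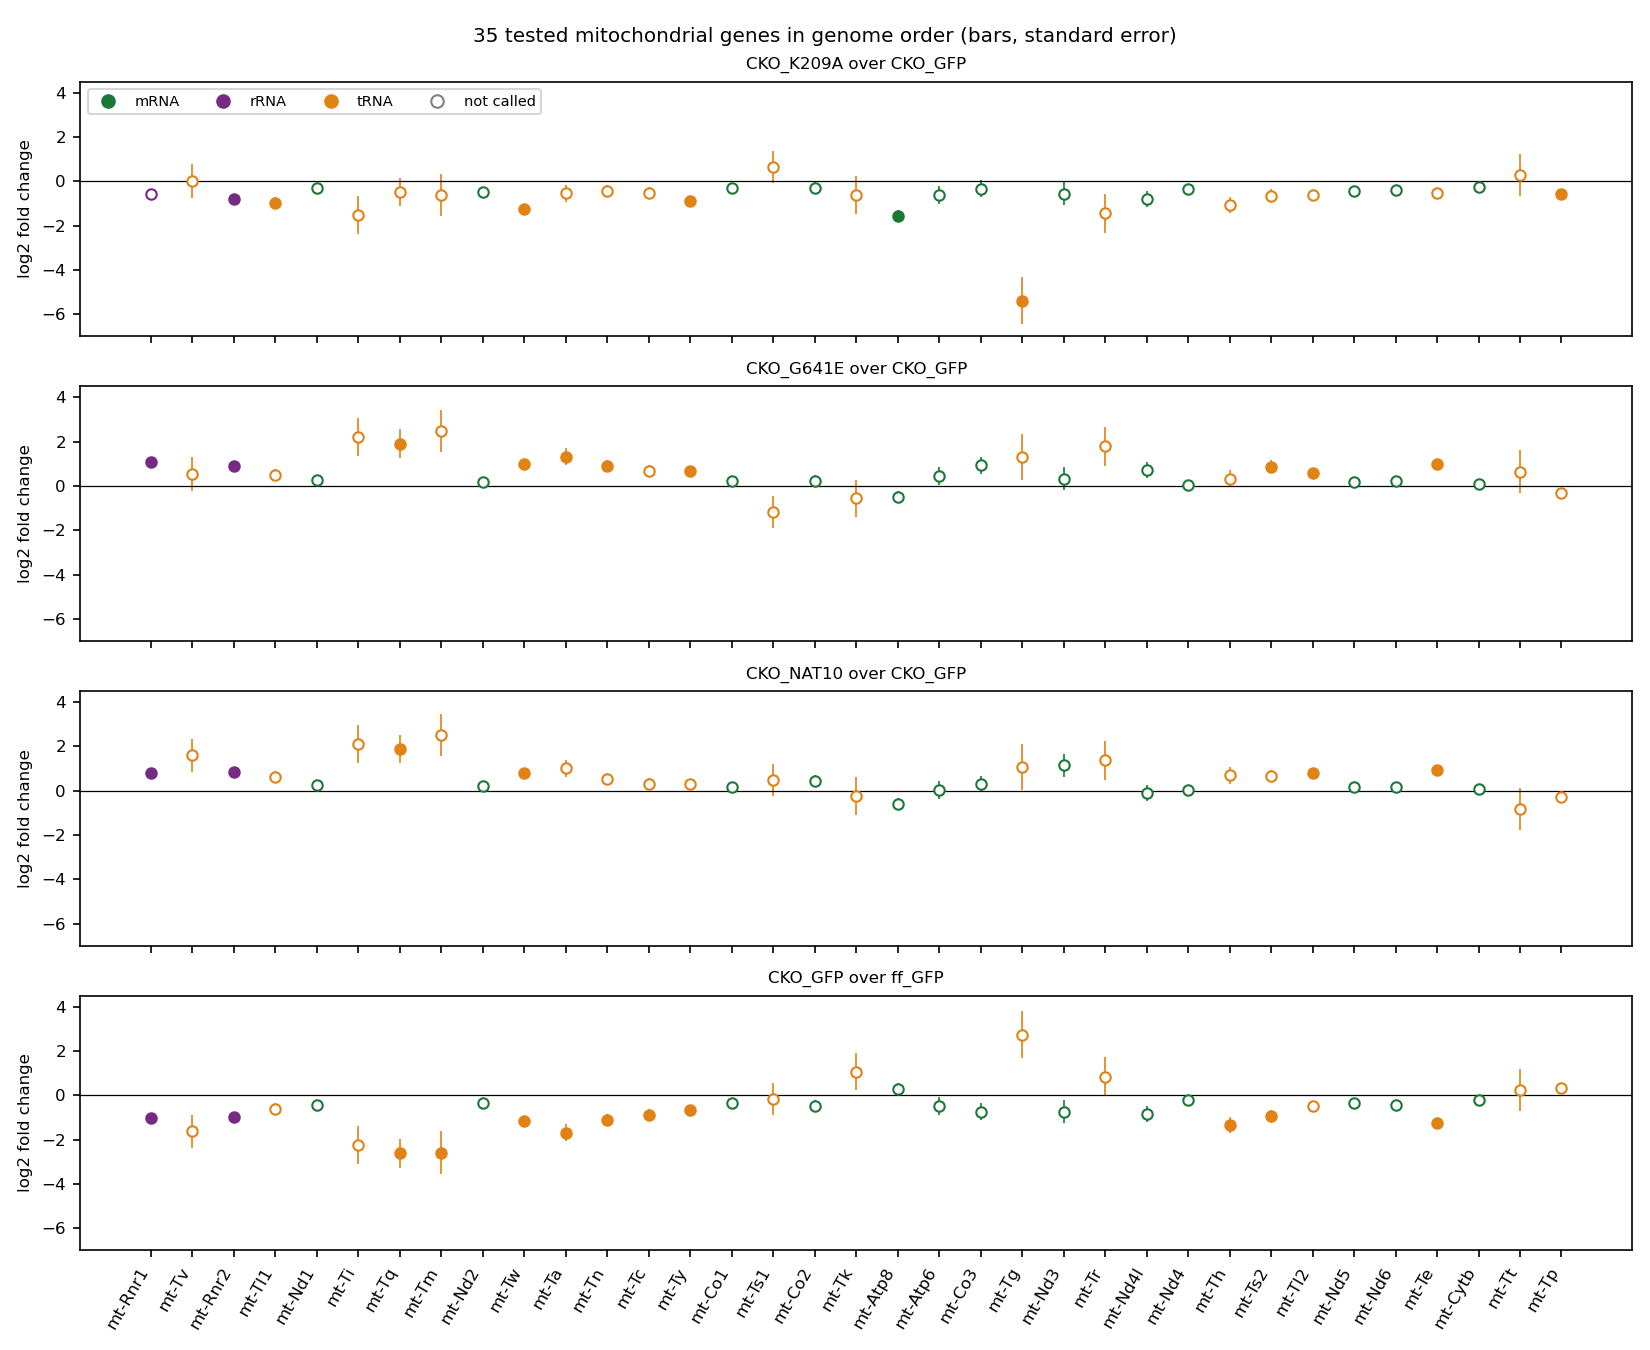
Log2 fold change with its standard error for 35 tested mitochondrial genes in genome order, in 4 comparisons (filled points, limma adjusted p under 0.05; open points, not called). In CKO_GFP over ff_GFP both rRNAs (purple) and 10 tRNAs (orange) are filled below 0 and the 13 mRNAs (green) are open; mt-Tg in CKO_K209A had 0 reads, so its fitted value is no measure of size.

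In CKO_NAT10 against CKO_GFP, where the virus carries NAT10, both rRNAs and 4 tRNAs rose and no mRNA was called, in a comparison in which 31.2% of all tested genes were called, 15.1% as higher and 16.1% as lower, and 38.9% did not overlap. In CKO_NAT10 mt-Rnr1 had 647, 1082 and 1012 FPKM, against 668, 407 and 484 FPKM in CKO_GFP, a log2 difference of 0.81 (SE 0.21, limma adjusted p = 0.0102). The first CKO_NAT10 heart lay within the CKO_GFP range of mt-Rnr1 and the other 2 lay above it. The large rRNA mt-Rnr2 had 1282, 2276 and 2013 FPKM in CKO_NAT10, against 1007, 1178 and 821 FPKM in CKO_GFP, without overlap (log2 difference 0.86, SE 0.22, limma adjusted p = 0.0105). The mt-Rnr1 call was lost without replicate 2 of CKO_GFP (0.65) and the mt-Rnr2 call without replicate 2 of CKO_NAT10 (0.70), and with these 2 groups alone in the model neither was called. The glutamic acid tRNA mt-Te had 1089, 1428 and 1109 FPKM in CKO_NAT10, against 592, 596 and 728 FPKM in CKO_GFP (log2 difference 0.91, SE 0.16, limma adjusted p = 8.26e-04). The other called tRNAs were mt-Tw at 0.80, mt-Tl2 at 0.80 and the sparsely counted mt-Tq at 1.89 on the log2 scale. The median over 20 tRNAs was 0.74, and the same without mt-Tv and mt-Tt, which had 0 reads in 1 of the groups and at most 3 in the other. Without replicate 1 of CKO_GFP 8 tRNAs were called, 7 higher and 1 lower, and without replicate 2 of CKO_K209A 7 were called as higher.

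The mRNAs in CKO_NAT10 against CKO_GFP had a median log2 difference of 0.15, with 11 of 13 positive. Limma and limma voom each called 0 of them, and 2 had an unadjusted p under 0.05. The leading mRNA mt-Co1 had 34685, 43526 and 44435 FPKM in CKO_NAT10, against 31225, 44469 and 35319 FPKM in CKO_GFP, with overlap. The mRNA mt-Atp8 lay the other way, with 34.3, 34.0 and 40.5 FPKM in CKO_NAT10 against 60.5, 60.7 and 47.5 FPKM in CKO_GFP, without overlap (log2 difference -0.62, limma adjusted p = 0.0974), and it passed the threshold at the same size without replicate 2 of ff_GFP or with these 2 groups alone. With 1 library left out, 1 mRNA was called without replicate 1 of CKO_NAT10, 1 without replicate 2 of CKO_GFP and 1 without replicate 2 of ff_GFP.

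In CKO_G641E against CKO_GFP, where the virus carries the G641E form, both rRNAs and 8 tRNAs rose and no mRNA was called, beside 31.3% of all tested genes called, 15.4% higher and 15.9% lower, and 39.9% without overlap. The small rRNA mt-Rnr1 had 982, 1198 and 1082 FPKM in CKO_G641E, against 668, 407 and 484 FPKM in CKO_GFP (log2 difference 1.09, SE 0.21, limma adjusted p = 0.00155). In CKO_G641E mt-Rnr2 had 1512, 2149.8 and 1925 FPKM, against 1007, 1178 and 821 FPKM in CKO_GFP (log2 difference 0.89, SE 0.22, limma adjusted p = 0.00849). Neither rRNA overlapped between these groups, and both calls held in each of the fits that left out 1 library. The tRNAs that rose were mt-Te (0.98), mt-Tw (0.98), mt-Tn (0.91), mt-Ty (0.66) and mt-Tl2 (0.60) among the well-counted ones, and mt-Tq, mt-Ta and mt-Ts2 among the others. The median over the 20 tested tRNAs was 0.77, or 0.86 without mt-Tv, which had 0 reads in CKO_GFP. Without replicate 2 of CKO_G641E 4 tRNAs were called, 3 higher and 1 lower. The count was 3 without replicate 3 of CKO_G641E and 3 without replicate 2 of CKO_GFP. The mRNA median was 0.22, with 1 unadjusted p under 0.05, 0 calls by limma or by limma voom, and 1 call without replicate 2 of CKO_GFP.

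The CKO_G641E and CKO_NAT10 hearts were then compared with each other. No member was called, beside 0.0522% of all tested genes (0.0326% higher and 0.0196% lower), and in the mRNAs and tRNAs 1 gene each had an unadjusted p under 0.05. Limma voom called 0 members as well. The log2 difference was 0.28 (SE 0.21) for mt-Rnr1 and 0.03 (SE 0.22) for mt-Rnr2, and the medians were 0.03 over the mRNAs and 0.07 over the tRNAs. Against ff_GFP, 0 members were called in CKO_G641E, beside 1.79% of all genes (0.627% higher and 1.16% lower, 26.9% without overlap). In CKO_NAT10 against ff_GFP 0 members were called as well, beside 2.47% (0.790% higher and 1.68% lower, 25.4% without overlap). In limma, 3 tRNAs had an unadjusted p under 0.05 in each of these comparisons with ff_GFP, 1 mRNA had one in CKO_NAT10 and 0 in CKO_G641E, and limma voom called 1 tRNA in each. Without replicate 1 of ff_GFP 2 tRNAs were called in CKO_G641E against ff_GFP and 1 in CKO_NAT10 against ff_GFP. One such tRNA was mt-Tg, the glycine tRNA between mt-Co3 and mt-Nd3, which had 56, 56 and 43 reads in CKO_G641E, 37, 52 and 36 in CKO_NAT10 and 36, 1 and 0 in ff_GFP. The first ff_GFP heart stood far from the other 2 in this tRNA. These comparisons share the ff_GFP or the CKO_GFP hearts with those above and are not independent of them.

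In CKO_K209A against CKO_GFP, where the virus carries the K209A form, no member rose. One mRNA, 1 rRNA and 5 tRNAs fell, beside 7.93% of all tested genes called, 2.17% higher and 5.76% lower, and 23.2% without overlap. The mRNA was mt-Atp8 (ENSMUSG00000064356, chrMT:7766-7969), which had 18, 13.6 and 26.5 FPKM in CKO_K209A, against 60.5, 60.7 and 47.5 FPKM in CKO_GFP. The groups did not overlap, and the log2 difference was -1.56 (SE 0.27, limma adjusted p = 0.00492). It rested on 55, 45 and 92 reads in CKO_K209A and 196, 166 and 145 reads in CKO_GFP, and was called in each of the fits that left out 1 library but not with these 2 groups alone in the model. The counting limit given above for mt-Atp8 applies to this call too. The large rRNA mt-Rnr2 had 723, 499 and 488 FPKM in CKO_K209A, against 1007, 1178 and 821 FPKM in CKO_GFP, a log2 difference of -0.82 (SE 0.22, limma adjusted p = 0.0407). That call was lost in 9 of the 15 fits without 1 library, among them those without replicate 2 or 3 of CKO_K209A (-0.74 and -0.72) and without replicate 1 or 2 of CKO_GFP (-0.81 and -0.70). It was also lost when the libraries were scaled to all reads in genes or to reads outside the mitochondrial genome. The small rRNA mt-Rnr1 had 379, 293 and 370.5 FPKM in CKO_K209A, below each CKO_GFP heart, and was not called (log2 difference -0.56, limma adjusted p = 0.120).

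The tRNAs that fell in CKO_K209A against CKO_GFP were mt-Tw (-1.23), mt-Tl1 (-1.0), mt-Ty (-0.90), mt-Tp (-0.57) and mt-Tg. Tryptophan tRNA mt-Tw had 65.8, 47.1 and 49.9 FPKM in CKO_K209A, against 149, 125 and 109.8 FPKM in CKO_GFP (SE 0.21, limma adjusted p = 0.00446). Glycine tRNA mt-Tg had 0 reads in each CKO_K209A heart and 22, 17 and 23 reads in CKO_GFP. Against a floor of 3 reads per library it was at least 7.46-fold lower in CKO_K209A. The ff_GFP hearts held 36, 1 and 0 reads of mt-Tg, so values near 0 were not limited to CKO_K209A. Proline tRNA mt-Tp had 1347, 1217 and 1173 FPKM in CKO_K209A, below each CKO_GFP heart (SE 0.13, limma adjusted p = 0.0161), and its call was lost without replicate 2 of CKO_K209A (-0.55) or replicate 3 of CKO_GFP (-0.52). The mt-Tl1 call was lost in 10 of the fits without 1 library, among them that without replicate 2 of CKO_GFP (-0.64), and the mt-Ty call without replicate 1 (-0.96) or 2 (-0.86) of CKO_K209A. Without replicate 2 of CKO_K209A 2 tRNAs were called. The median over the tRNAs was -0.62, or -0.63 with mt-Tg at its bound and without mt-Tv, which had 0 reads in both groups. The mRNAs had a median of -0.39, all 13 were negative, and 4 had an unadjusted p under 0.05, with 2 called without replicate 1 of CKO_GFP.

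In CKO_K209A against ff_GFP, 12 of the 13 mRNAs, both rRNAs and 13 of the 20 tRNAs fell, beside 47.7% of all tested genes called, 23.2% higher and 24.5% lower, and 59.5% without overlap. The mRNAs without a chromosome 1 copy were called in 5 of 5 cases: mt-Nd2 at -0.86, mt-Nd6 at -0.84, mt-Nd5 at -0.78, mt-Nd1 at -0.75 and mt-Cytb at -0.50 on the log2 scale. The complex I mRNA mt-Nd2 had 9272, 7809 and 6348 FPKM in CKO_K209A, against 14337, 14778 and 13034 FPKM in ff_GFP (SE 0.19, limma adjusted p = 0.00203). The longest of the mRNAs, mt-Nd5, which encodes a complex I subunit, had 11206, 7419 and 9347 FPKM in CKO_K209A, against 18393, 13687 and 15779.8 FPKM in ff_GFP (SE 0.18, limma adjusted p = 0.00233). The complex III mRNA mt-Cytb had 21304, 18435 and 15311 FPKM in CKO_K209A, against 26238, 26424 and 24441 FPKM in ff_GFP (SE 0.19, limma adjusted p = 0.0415). None of these 3 mRNAs overlapped, and the mt-Cytb call was lost in 9 of the 15 fits without 1 library, at -0.53 to -0.37. The mRNA not called was mt-Nd3, with 233, 109.6 and 68.2 FPKM in CKO_K209A against 477, 246 and 217 FPKM in ff_GFP (log2 difference -1.29, SE 0.51, limma adjusted p = 0.0532). Without replicate 2 of CKO_K209A 7 mRNAs were called, and 7 without its replicate 3.

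The rRNAs and tRNAs had larger log2 differences than the mRNAs in CKO_K209A against ff_GFP, with medians of -1.70 and -1.61 beside -0.84. The large rRNA mt-Rnr2 differed by -1.80 (SE 0.22, limma adjusted p = 1.98e-05) and mt-Rnr1 by -1.60 (SE 0.21, limma adjusted p = 3.07e-05). Tryptophan tRNA mt-Tw had the smallest p of the members, with a log2 difference of -2.42 (SE 0.21, limma adjusted p = 7.39e-07), followed by mt-Te at -1.78 (SE 0.16, limma adjusted p = 9.98e-07). Of the 8 well-counted tRNAs 7 fell, and mt-Tp was the exception (log2 difference -0.26, limma adjusted p = 0.103). The tRNA mt-Tg was not called, and 1 ff_GFP heart held nearly all of its reads in that group. The tRNA median with mt-Tg at its bound against the floor of 3 reads, and without mt-Tv, was -1.60.

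Against CKO_NAT10, 7 mRNAs, both rRNAs and 15 tRNAs fell in CKO_K209A, beside 41.5% of all tested genes called, 20.3% higher and 21.2% lower, and 54.4% without overlap. Against CKO_G641E, 8 mRNAs, both rRNAs and 15 tRNAs fell, beside 40.8% called, 19.6% higher and 21.2% lower, and 55.4% without overlap. In both comparisons 4 of the 5 mRNAs without a chromosome 1 copy fell, with mt-Cytb the exception. In CKO_K209A against CKO_NAT10 mt-Nd2 differed by -0.74 (SE 0.19, limma adjusted p = 0.00696), and against CKO_G641E by -0.68 (SE 0.19, limma adjusted p = 0.0115). The small rRNA mt-Rnr1 differed by -1.37 against CKO_NAT10 and by -1.65 against CKO_G641E, and mt-Rnr2 by -1.69 and -1.72 in the same 2 comparisons. The tRNA mt-Tg was at least 16-fold lower in CKO_K209A than in CKO_NAT10 and at least 19.1-fold lower than in CKO_G641E. It had 36, 1 and 0 reads in the ff_GFP hearts, and it lies between 2 mRNAs of the stretch copied on chromosome 1. The mRNA counts depended on single hearts: against CKO_NAT10, 2 mRNAs were called without replicate 2 of CKO_K209A, 3 without its replicate 3, and 2 each without replicate 2 or 3 of CKO_NAT10. Against CKO_G641E, 3 were called without replicate 2 of CKO_K209A, 4 without its replicate 3 and 4 without replicate 2 of CKO_G641E.

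A moderated F test over all 5 groups called 6 of 13 mRNAs (mt-Nd1, mt-Nd2, mt-Atp8, mt-Nd4l, mt-Nd5 and mt-Nd6), 2 of 2 rRNAs and 16 of 20 tRNAs, beside 48.1% of all tested genes. Without replicate 2 of CKO_GFP 10 mRNAs were called, 3 without replicate 2 of CKO_K209A and 2 without its replicate 3.

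The make-up of the mRNA pool was compared within libraries, as the log2 of each mRNA over the geometric mean of all 13. In CKO_K209A mt-Cytb stood at 2.92 ± 0.10, against 2.49 ± 0.12 in ff_GFP (SD, n = 3 each), and mt-Nd4 at 1.90 ± 0.09 against 1.5 ± 0.15. In CKO_K209A mt-Cytb and mt-Co1 lay above each of the 4 other groups without overlap, and mt-Nd4 above each but CKO_GFP. Against ff_GFP these 3 mRNAs thus stood higher within the pool while their FPKM was lower. The 6 low mRNAs of the copied stretch enter the geometric mean and had a median log2 difference of -1.18 there. Such a ratio shows unequal change and not which mRNA changed. In CKO_GFP mt-Atp8 stood at -5.95 ± 0.36, against -6.64 ± 0.56 in ff_GFP, without overlap. Over 130 tests of gene and comparison, the smallest exact two-sided permutation p was 0.10, the smallest 3 hearts against 3 allow, and no adjusted p was below 0.62. Groups did not overlap in 21 of the 130. Without any difference, separation of 3 hearts from 3 has a probability of 0.10 in each test. The tests also share hearts and a denominator, so the count is no measure of a changed make-up.

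The nuclear genes of the same respiratory complexes were called far more often than the mitochondrial subunits in CKO_GFP against ff_GFP. For complex I, 0 of 7 mitochondrial mRNAs were called (median log2 difference -0.43), against 31 of 36 nuclear ones (-0.64). For complex III the counts were 0 of 1 (-0.22) and 8 of 9 (-0.75), for complex IV 0 of 3 (-0.48) and 10 of 14 (-0.58), and for complex V 0 of 2 (-0.09) and 17 of 17 (-0.70). The nuclear genes called were all lower in CKO_GFP. Beside these counts, 40.5% of all tested genes were called, 20.8% as lower. Between CKO_GFP hearts the mitochondrial medians spread more widely than the nuclear ones, so the counts are no measure of the size of change. Ndufs1, an iron-sulfur subunit of complex I, averaged 36.5 ± 0.302 FPKM in CKO_GFP and 85.3 ± 0.938 FPKM in ff_GFP (SD, n = 3 each; log2 difference -1.21, limma adjusted p = 1.32e-07). Cox7a1, the muscle isoform of a complex IV subunit, averaged 99.3 ± 2.46 FPKM in CKO_GFP and 341 ± 17.9 FPKM in ff_GFP (log2 difference -1.77, limma adjusted p = 2.28e-08). In CKO_K209A against ff_GFP the mitochondrial counts were 6 of 7, 1 of 1, 3 of 3 and 2 of 2 for complexes I, III, IV and V, and the nuclear counts 35 of 36, 9 of 9, 13 of 14 and 17 of 17. Over all tested genes 47.7% were called in this comparison, 24.5% as lower. The nuclear medians there were -1.07, -1.13, -0.89 and -1.05, and the mitochondrial ones -0.84, -0.50, -0.79 and -1.18. Whether the genomes differ was not tested.

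**Figure D5:**
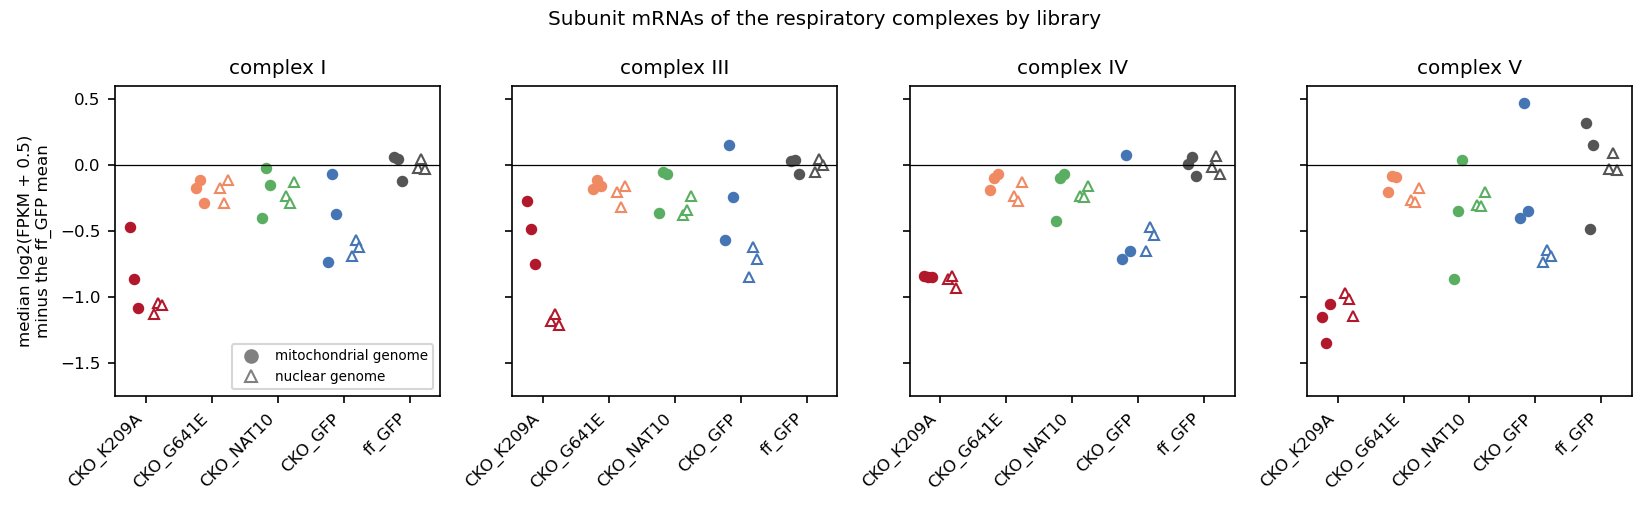
Median log2(FPKM + 0.5) of subunit mRNAs in each heart, relative to the ff_GFP mean, for subunits encoded by the mitochondrial (filled circles) and the nuclear genome (open triangles) in complexes I, III, IV and V. In CKO_GFP the nuclear medians of the 3 hearts lie close together below 0, while the mitochondrial medians spread with 1 heart (replicate 2) near or above 0.

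Genes that act on mitochondrial RNA were counted from lists chosen by function, to be read beside the 40.5% of all tested genes called in CKO_GFP against ff_GFP (19.8% higher and 20.8% lower). Of 9 mitochondrial transcription genes 5 fell in CKO_GFP against ff_GFP and 0 rose. Tfam, which packages mitochondrial DNA and starts its transcription, averaged 7.19 ± 0.587 FPKM in CKO_GFP and 11.5 ± 0.923 FPKM in ff_GFP (SD, n = 3 each; log2 difference -0.65, limma adjusted p = 1.91e-04). The mitochondrial RNA polymerase Polrmt averaged 7.63 ± 0.798 FPKM in CKO_GFP and 12.2 ± 1.55 FPKM in ff_GFP (log2 difference -0.64, limma adjusted p = 0.00243), and Mterf4, needed for assembly of the mitochondrial ribosome, differed by -0.32 (adjusted p = 0.0421). The initiation factor Tfb2m (-0.10) and the elongation factor Tefm (-0.31) were not called. In CKO_NAT10 against CKO_GFP Tfam rose by 0.41 (limma adjusted p = 0.00734). In CKO_K209A against CKO_GFP Tfam differed by 0.13 (adjusted p = 0.480) and Tfb2m fell to 7.73 ± 0.0375 FPKM in CKO_K209A, against 10.5 ± 1.85 FPKM in CKO_GFP (log2 difference -0.41, limma adjusted p = 0.0359).

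Of 22 tested genes of mitochondrial RNA processing and stability, 11 fell and 4 rose in CKO_GFP against ff_GFP, beside 20.8% lower and 19.8% higher over all tested genes. Those that fell included Fastkd1 (-1.10), Ptcd3 (-0.83), a protein of the mitochondrial ribosome, Fastk (-0.76) and Lrpprc (-0.51), which stabilises mitochondrial mRNAs. Those that rose included Rexo2 (0.91), an oligoribonuclease, Elac2 (0.44), which cuts the 3′ ends of tRNAs, and Trnt1 (0.41), which adds CCA to tRNA ends. In CKO_NAT10 against CKO_GFP Rexo2 (-0.86) and Elac2 (-0.46) fell, while Lrpprc (0.45), Ptcd3 (0.64) and Fastkd1 (0.71) rose. Except for Lrpprc, these genes were picked by their adjusted p in CKO_GFP against ff_GFP. Both comparisons use the CKO_GFP hearts, so an opposite direction is partly built in. Slirp, the partner of Lrpprc, stayed between 0.0861 and 0.409 FPKM and was not tested. Of 23 tRNA and rRNA modification genes 8 fell and 2 rose, a share called near the 40.5% of all tested genes, among them Trmt5 (-1.25), a tRNA methyltransferase, Mrm1 (-1.15), a methyltransferase of the large mitochondrial rRNA, Osgepl1 (-0.87) and, rising, Yrdc (0.88) and the pseudouridine synthase Pus1 (0.60). Of 15 genes of mitochondrial DNA maintenance 3 fell and 2 rose, a smaller share than the 40.5% of all tested genes; those that rose were the topoisomerase Top1mt (0.74) and Rnaseh1 (0.32), while the helicase Twnk (-0.19) and the DNA polymerase Polg (-0.18) were not called. Of 8 regulators of mitochondrial biogenesis 3 fell, among them Esrrg (-0.80), 1 rose, Pprc1 (0.60), and Ppargc1a (-0.43, limma adjusted p = 0.148) was not called.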

How the data were processed

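The deposited table holds FPKM values that the authors computed per gene, per the file headers. Per the submitters' processing notes, the tools were CASAVA, HISAT2 2.0.5, featureCounts 1.5.0-p3 and DESeq2 1.20.0, with build GRCm38. FPKM times gene length gave whole reads (within 0.05 read) for 100% of values, and the authors' scale equalled a median-of-ratios scale (ratio 1.000 in 15 libraries).

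The members and gene lists were chosen with earlier results of these data known. Values were taken as log2(FPKM + 0.5), which understates changes of low genes, for the 15321 genes reaching 0.5 FPKM in 3 or more libraries. They were fitted with limma 3.58.1 (R 4.3.3), 5 groups in 1 model with a trended prior. P-values were adjusted by Benjamini-Hochberg within each of 10 comparisons and called under 0.05. Shares and ratios were compared by exact two-sided permutation tests. Genes named were all members, Nat10, 10 fixed regulators, listed nuclear genes called in CKO_GFP against ff_GFP (up to 8 in each direction by adjusted p) and up to 2 nuclear subunits per complex. The code was tested on simulated data. No batch is given in the sources used here. Alternatives changed the pseudocount, filter, scaling, replicate block and libraries included.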

Additional observations from a re-analysis of the deposited data

How the results depend on the processing

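Counts of called mRNAs depended on the settings. In CKO_GFP against ff_GFP, 0 were called, 1 with quantile normalization, 2 with limma voom on recovered reads (chosen after seeing the data) and 0 to 6 without 1 library each. In CKO_NAT10 against CKO_GFP it was 0, 1 with these 2 groups alone and 0 to 1 without 1 library. In CKO_G641E against CKO_GFP it was 0, 1 with the replicate block, 2 with the 2 groups alone and 0 to 1 without 1 library. In CKO_K209A against CKO_GFP it was 1, 0 with the 2 groups alone and 1 to 2 without 1 library. In CKO_K209A against CKO_NAT10 it was 7, 2 without a filter on low values, 3 with quantile normalization, 4 with scaling to all reads in genes, to reads outside the mitochondrial genome or with the 2 groups alone, and 2 to 8 without 1 library. In CKO_K209A against CKO_G641E it was 8, 2 without a filter and with quantile normalization, and 3 to 10 without 1 library. In CKO_K209A against ff_GFP it was 12, 2 without a filter, 3 with quantile normalization, 7 with either read scaling and 7 to 13 without 1 library. The F test called 6, 2 without a filter, 1 with quantile normalization, 3 with scaling to all reads and 2 to 10 without 1 library. Quantile normalization, which by construction gives genes of equal rank the same value, turned mt-Nd4 to 0.20 in CKO_GFP against ff_GFP, in CKO_K209A against CKO_NAT10 and in CKO_K209A against ff_GFP, mt-Tp to 0.33 in CKO_K209A against CKO_G641E and 0.38 against ff_GFP, and mt-Co1 to 0.00 and mt-Nd5 to 0.07 in CKO_K209A against ff_GFP; no other value called in either fit changed sign. The cause of the other moves was not tested. Scaling to all reads moved the median of all genes by 0.12 in CKO_GFP against ff_GFP and by 0.11, 0.13 and 0.21 in CKO_K209A against CKO_NAT10, CKO_G641E and ff_GFP. Calls were then 4185 higher and 2271 lower in place of 3032 and 3180 in CKO_GFP against ff_GFP, 977 and 480 in place of 333 and 882 in CKO_K209A against CKO_GFP, and 5623 and 2504 in place of 3547 and 3760 in CKO_K209A against ff_GFP. Same-numbered libraries correlated at -0.15 to 0.36, and 7 of 15 correlated best with their own number. The numbers were not taken to pair hearts, though these values cannot exclude a pairing. With the replicate block 5 mRNAs were called in CKO_K209A against CKO_NAT10 and 11 against ff_GFP. The planned fits with edgeR and DESeq2 were not run; limma voom on the recovered reads was run in their place. Depth limits the 14 tRNAs whose median was under 100 reads.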
